A study of Mus musculus with 5 samples.

Results

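The genes examined here are the enzymes of glycolysis, the carriers that bring glucose in and take lactate out, the switches that direct pyruvate, and a set of genes that typically respond to low oxygen. They were chosen as a list of 37 genes and followed through the array probe sets that name 1 gene only, with the brightest probe set taken where a gene had several. Of these 37 genes 34 were measured, out of 19938 genes measured in the same way on the arrays. They comprised 4 transporters, 8 genes of the upper and 5 of the lower glycolytic pathway, 2 regulators of phosphofructokinase, 4 genes at the pyruvate branch point and 11 genes of the hypoxia response. Gpi1, Eno1 and Gapdh had no probe set that named them alone in the annotation used and were not analysed here.

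Glycolysis splits glucose into pyruvate. Pyruvate is either reduced to lactate by lactate dehydrogenase and exported, or oxidised in the mitochondria by the pyruvate dehydrogenase complex. Pyruvate dehydrogenase kinases hold that complex back. Many of these genes are classical targets of the hypoxia-inducible factors (HIFs), transcription factors whose alpha subunits are marked for destruction by oxygen-dependent prolyl hydroxylases and the Vhl protein. When oxygen is low, the alpha subunit is stable, pairs with Arnt and binds a short DNA core next to genes of glycolysis, blood vessel growth, collagen modification and mitochondrial removal. Embryonic stem cells (ESCs) are known for a high rate of glycolysis and rapid division, and cultured mouse embryonic fibroblasts (MEFs) for making collagen-rich matrix.

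Gene expression was measured on 5 whole-transcript mouse arrays, 1 for each of 5 groups. A 2i and an S group made up the ESCs, and the MEFs comprised a 4n 2i, a 2n 2i and a control group. All the cells, controls included, had the same background, F1 of 129X1/SvJ X MSM/Ms. The titles numbered the 2i ESC sample 15, the S ESC sample 36, the 4n 2i MEF sample 2, the 2n 2i MEF sample 15 and the control MEF sample 4. The study's title is about ESCs of female origin in the ground state and the DNA methylation they keep from the gametes. The label 2i commonly denotes culture with inhibitors of the kinases MEK and GSK3, whereas the labels leave S, 2n and 4n undefined, so these serve only as group names. Ages of embryos, numbers of animals or clones and the culture conditions of each group are not given in the labels.

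Levels are the deposited linear intensities, and differences are on the scale of log2(intensity + 1). A gene entered a comparison if its brighter side reached the floor of that array, the median of the probe sets that name genes, which lay between 217.9 and 240.1 intensity units. Of the 34 measured members, between 30 and 32 reached the floor on each array and 28 reached it on all 5, while Car9, a carbonic anhydrase and HIF target, was below it everywhere, at between 62.5 and 91.2 intensity units. The labelled cell types carried their markers: 8 of 8 pluripotency genes reached the floor on both ESC arrays and 1 (Klf2) on each MEF array, and 7 of 7 measured fibroblast genes reached it on every MEF array, against 3 on the 2i ESC array and 4 on the S ESC array. The 4n 2i MEF array stood farther from the control MEF array than the 2n 2i MEF array did, with an SD of log2 differences across genes of 0.65 for the 4n and 0.31 for the 2n array. Many deposited values were identical between MEF arrays, in 37.4% of probe sets for 4n against 2n, 37.9% for 4n against control and 45.4% for 2n against control MEFs, so that a difference of exactly 0 there is a property of the deposited values. Among the members this applied to Ankrd37 and Car9 and, on both 2i MEF arrays, to Pdk1. With bulk RNA, fewer cells of a kind and less RNA per cell cannot be told apart.

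**Figure D1:**
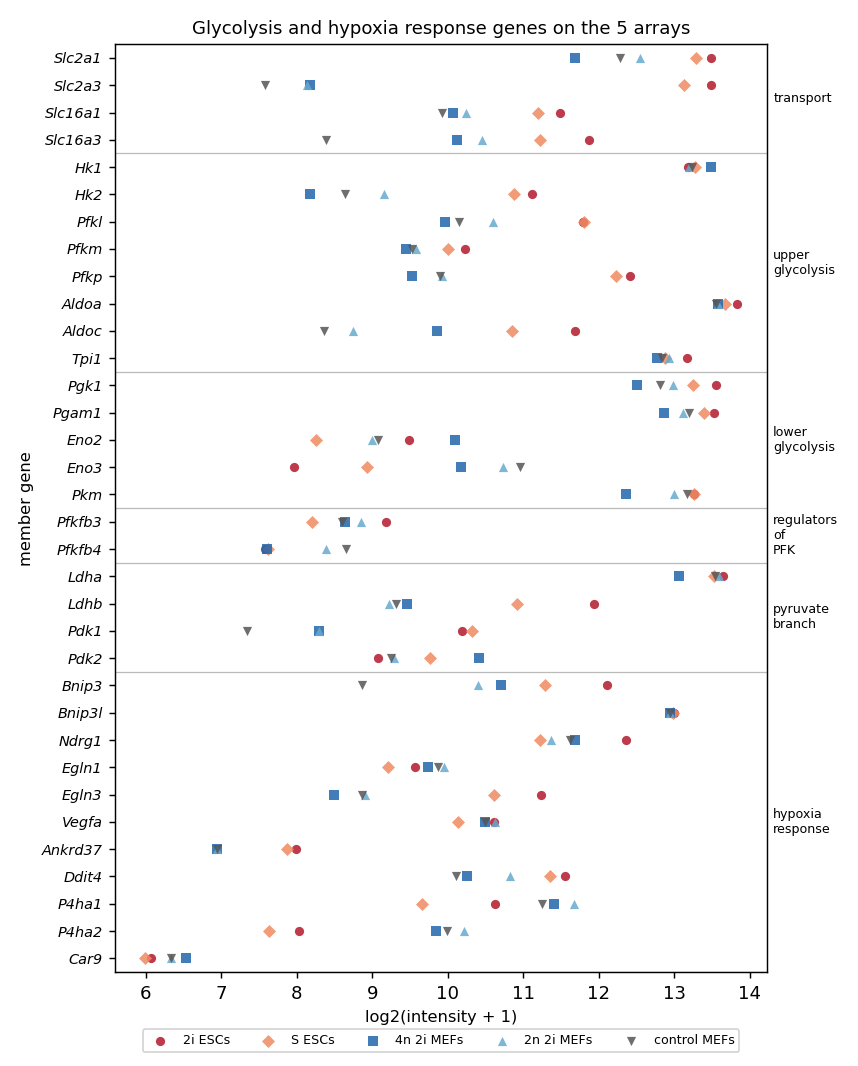
Level of each measured member on the 5 arrays, as log2(intensity + 1) on the horizontal axis, with members in rows grouped by role and 1 symbol per array. Slc2a3, Pfkp, Hk2 and Egln3 show the ESC symbols far to the right of the MEF symbols, Bnip3l and Aldoa lie nearly on top of each other, and Slc16a3 and Bnip3 have the control MEF symbol far to the left.

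Promoter sequence was examined for the core that HIFs bind, spelled ACGTG or GCGTG and searched on both strands, so that it also reads CACGT or CACGC. The core overlaps the E-box CACGTG, which other factors bind as well and which counts once on each strand. Windows of 300 bases, 250 before to 50 after the annotated start, came from RefSeq on assembly GRCm38.p6 and were present for 31 of the 34 measured members. Slc2a3, Ndrg1 and Bnip3l are named only. A core was present in 25 of the 31 windows (80.6%), compared with 52.0% of the windows of 15563 genes measured on the arrays and 43.8% of all 27025 windows of the table. An E-box was present in 5 of the 31 windows (16.1%), compared with 8.42% and 7.24% in the same larger sets. No core stood in the windows of Aldoa, Eno2, Hk1, Pkm, Tpi1 and Vegfa, which says only that these letters are not in these windows.

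The windows shown are those of members the results turn on. Slc16a3 (chr11:120948817-120949116, plus strand) and Bnip3 (chr7:138909457-138909756, minus strand) were the members at least 2-fold higher on both 2i MEF arrays. Hk2 (chr6:82774405-82774704, minus strand), Pdk1 (chr2:71872974-71873273, plus strand) and Egln3 (chr12:54203825-54204124, minus strand) were among those higher in ESCs. Ldha (chr7:46845554-46845853, plus strand) did not pass the test between ESCs and MEFs although its window held 7 matches, the most among the members. Each is written 5′ to 3′ on the strand of its gene, and capitals mark the core on either strand. The windows held 2 matches for Slc16a3, 5 for Bnip3, 2 for Hk2, 2 for Pdk1 and 1 for Egln3.
Slc16a3: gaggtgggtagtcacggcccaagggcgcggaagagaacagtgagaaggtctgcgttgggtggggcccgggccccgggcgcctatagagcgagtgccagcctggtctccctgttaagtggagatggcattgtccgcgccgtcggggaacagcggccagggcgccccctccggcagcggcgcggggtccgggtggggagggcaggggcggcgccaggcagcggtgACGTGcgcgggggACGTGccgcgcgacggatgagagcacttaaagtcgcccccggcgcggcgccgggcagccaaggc
Bnip3: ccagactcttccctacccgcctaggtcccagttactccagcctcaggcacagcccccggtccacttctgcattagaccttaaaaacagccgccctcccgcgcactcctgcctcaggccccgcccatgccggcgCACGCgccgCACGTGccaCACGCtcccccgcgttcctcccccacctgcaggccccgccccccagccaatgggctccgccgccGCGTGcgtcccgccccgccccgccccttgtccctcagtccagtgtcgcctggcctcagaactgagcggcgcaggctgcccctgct
Hk2: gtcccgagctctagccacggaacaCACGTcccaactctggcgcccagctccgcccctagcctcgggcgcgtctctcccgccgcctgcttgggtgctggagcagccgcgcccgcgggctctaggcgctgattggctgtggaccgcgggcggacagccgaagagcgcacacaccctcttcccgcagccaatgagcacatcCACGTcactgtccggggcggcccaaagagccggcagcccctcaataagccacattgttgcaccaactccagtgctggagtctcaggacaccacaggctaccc
Pdk1: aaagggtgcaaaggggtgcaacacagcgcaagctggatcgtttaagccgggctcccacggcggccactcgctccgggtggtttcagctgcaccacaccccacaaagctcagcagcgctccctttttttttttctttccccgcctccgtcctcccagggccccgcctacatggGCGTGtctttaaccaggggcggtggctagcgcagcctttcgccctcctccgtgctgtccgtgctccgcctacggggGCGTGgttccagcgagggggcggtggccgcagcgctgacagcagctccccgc
Egln3: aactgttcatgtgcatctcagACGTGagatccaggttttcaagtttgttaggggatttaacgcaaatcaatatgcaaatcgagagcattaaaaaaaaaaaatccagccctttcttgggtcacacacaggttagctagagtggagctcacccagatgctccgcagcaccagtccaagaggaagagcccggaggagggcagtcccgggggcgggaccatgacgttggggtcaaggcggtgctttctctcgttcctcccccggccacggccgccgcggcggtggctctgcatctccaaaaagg
Ldha: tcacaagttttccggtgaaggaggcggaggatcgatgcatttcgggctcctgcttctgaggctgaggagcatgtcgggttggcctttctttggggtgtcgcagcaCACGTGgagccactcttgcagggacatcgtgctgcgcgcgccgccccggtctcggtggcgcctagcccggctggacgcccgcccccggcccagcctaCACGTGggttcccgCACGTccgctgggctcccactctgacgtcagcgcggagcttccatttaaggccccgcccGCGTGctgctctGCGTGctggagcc
In Slc16a3 the cores lie close together near the start, in Bnip3 and Ldha they include E-boxes, and in Egln3 the single core lies near the far end of the window. A match is a description of the letters and not evidence of a bound factor.

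The first comparison set the 2 ESC arrays against the 3 MEF arrays and asked how the 2 cell types differ in these genes. Genes for glucose uptake, several genes of the first steps of glycolysis and Pdk1, a kinase that holds back pyruvate dehydrogenase, were higher in ESCs. Most genes of the lower pathway were not called, and neither were most of all genes tested. A gene was called where limma gave an adjusted p (Benjamini-Hochberg) under 0.05 together with a change of 2-fold or more. By this rule 11 of 33 tested members were higher in ESCs and 3 were lower. Over all 11841 genes tested, 32.9% passed these thresholds in either direction, 16.6% higher and 16.3% lower, against 33.3% higher and 9.09% lower among the members. The median log2 difference was 0.42 over the members and 0.06 over all genes tested. The arrays of a cell type are different groups, so the spread behind these tests is that between conditions and not between repeated samples, and the number of arrays limits the precision.

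Among the transporters, Slc2a3, which encodes the high-affinity glucose carrier GLUT3, showed the widest gap of all members. Its intensity was 11515 in 2i ESCs and 8919 in S ESCs, against 288 in 4n 2i MEFs, 279 in 2n 2i MEFs and 191 in control MEFs. Both ESC arrays were far above every MEF array, and the control MEF value lay below that array's floor. The 4n and 2n 2i MEF values were not far above theirs, so the difference includes an unknown part of background. The difference was 5.35 on the log2 scale (SE 0.24, limma adjusted p = 0.000349), or 40.7-fold, and 0.228% of all genes tested had a larger one. Slc2a1, the ubiquitous glucose carrier GLUT1, read 11521 in 2i ESCs and 10031 in S ESCs, against 3302 in 4n 2i MEFs, 5989 in 2n 2i MEFs and 4984 in control MEFs. It was thus bright on every array and 2.33-fold higher in ESCs (log2 1.22, SE 0.28, limma adjusted p = 0.0214), with no overlap. Slc16a1, which carries lactate and pyruvate as MCT1, had 2875 in 2i ESCs and 2344 in S ESCs, against 1077 in 4n 2i MEFs, 1214 in 2n 2i MEFs and 974 in control MEFs, and was 2.39-fold higher in ESCs (log2 1.26, SE 0.15, limma adjusted p = 0.00325). Slc16a3, the lactate exporter MCT4, read 3755 in 2i ESCs and 2383 in S ESCs, against 1112 in 4n 2i MEFs, 1401 in 2n 2i MEFs and 335 in control MEFs. The control MEF array was the low one among the MEFs, and the difference of 1.89 (SE 0.71) did not pass (limma adjusted p = 0.0774). Without the control MEF array it was 1.26 and passed (limma adjusted p = 0.0364).

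In the upper part of the pathway, 4 of 8 members were higher in ESCs and none was lower. Over all genes tested, 16.6% were called higher and 16.3% lower. Hk2, the inducible hexokinase that phosphorylates glucose, read 2226 in 2i ESCs and 1888 in S ESCs, against 289 in 4n 2i MEFs, 567 in 2n 2i MEFs and 397 in control MEFs. The ESC arrays did not overlap the MEF arrays, and the difference was 5.09-fold (log2 2.35, SE 0.31, limma adjusted p = 0.0043). Phosphofructokinase, which commits the sugar to glycolysis, is made from 3 genes, and they differed in size of change. Its platelet-type gene Pfkp had 5433 in 2i ESCs and 4816 in S ESCs, against 735 in 4n 2i MEFs, 968 in 2n 2i MEFs and 951 in control MEFs, a difference of 5.82-fold (log2 2.54, SE 0.16, limma adjusted p = 0.000688). The liver-type gene Pfkl had 3537 in 2i ESCs and 3575 in S ESCs, against 998 in 4n 2i MEFs, 1549 in 2n 2i MEFs and 1136 in control MEFs, a difference of 2.95-fold (log2 1.56, SE 0.21, limma adjusted p = 0.00456). The muscle-type gene Pfkm read 1196 in 2i ESCs and 1023 in S ESCs, against 695 in 4n 2i MEFs, 767 in 2n 2i MEFs and 736 in control MEFs. The arrays did not overlap, but its difference of 0.59 (limma adjusted p = 0.0111) was under 2-fold and so was not called. The members of the phosphofructokinase step thus ordered as Pfkp, Pfkl and Pfkm by difference, which is not a statement about their levels.

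The aldolases cleave the 6-carbon sugar. Aldoc, the brain-type aldolase, read 3282 in 2i ESCs and 1842 in S ESCs, against 924 in 4n 2i MEFs, 427 in 2n 2i MEFs and 327 in control MEFs. Both cell types were spread widely without overlapping, and the difference was 4.86-fold (log2 2.28, SE 0.54, limma adjusted p = 0.0224). Aldoa, the common aldolase, lay between 12005 and 14586 intensity units on all 5 arrays, with a difference of 0.19 (limma adjusted p = 0.141). Tpi1, triose phosphate isomerase, lay between 6988 and 9220 with overlapping cell types (0.18, limma adjusted p = 0.284). Neither passed the test. For Hk1, the housekeeping hexokinase, the brightest probe set matched a single old sequence record and no RefSeq mRNA, and it differed by -0.08 (limma adjusted p = 0.608). The dimmer Hk1 probe set, which matched RefSeq mRNAs, read 1332 in 2i ESCs and 1291 in S ESCs, against 1065 in 4n 2i MEFs and 1713 in both 2n 2i and control MEFs.

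In the lower part of the pathway no member was called higher in ESCs and 1 of 5 was called lower. These counts lie close to the shares over all genes tested, 16.6% higher and 16.3% lower. Pgk1, phosphoglycerate kinase, which makes the first ATP of the pathway, read 11961 in 2i ESCs and 9747 in S ESCs, against 5800 in 4n 2i MEFs, 8071 in 2n 2i MEFs and 7215 in control MEFs. It did not overlap between cell types and had an adjusted p of 0.0426 in limma, but its difference of 0.63 was under 2-fold. Pgam1, phosphoglycerate mutase, had a difference of 0.40 (limma adjusted p = 0.0577). Pkm, pyruvate kinase, read 9773 in 2i ESCs and 9847 in S ESCs, against 5253 in 4n 2i MEFs, 8179 in 2n 2i MEFs and 9186 in control MEFs. The 4n 2i MEF array was the lowest and control MEFs were close to the ESCs, and the difference of 0.42 did not pass (limma adjusted p = 0.238). The enolases that could be measured had negative differences, of which 1 was called. Eno3, the muscle enolase, read 248 in 2i ESCs and 487 in S ESCs, against 1150 in 4n 2i MEFs, 1696 in 2n 2i MEFs and 1995 in control MEFs, and was 4.52-fold lower in ESCs (log2 -2.17, SE 0.39, limma adjusted p = 0.0101). Eno2, the neuronal enolase, overlapped between the cell types and differed by -0.52 (limma adjusted p = 0.437). Pgk1, Pgam1 and Pkm have near-identical processed copies in the mouse genome, and their several probe sets gave similar differences between arrays, so signal of the copies may be shared.

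At the pyruvate branch point, 2 of 4 members were higher in ESCs, where 16.6% of all genes tested were. Pdk1, a kinase that switches off pyruvate dehydrogenase and a well-known HIF target, read 1166 in 2i ESCs and 1281 in S ESCs, against 314 in 4n 2i MEFs, 314 in 2n 2i MEFs and 162 in control MEFs. All MEF values were low, and the control value was below the floor, so the difference includes an unknown part of background. The difference was 4.85-fold (log2 2.28, SE 0.35, limma adjusted p = 0.0062), with the same deposited value on the 4n and 2n arrays. Pdk2, a kinase of the same family, overlapped between cell types and differed by -0.23 (limma adjusted p = 0.689). Ldhb, the lactate dehydrogenase subunit typical of heart, had 3933 in 2i ESCs and 1928 in S ESCs, against 703 in 4n 2i MEFs, 597 in 2n 2i MEFs and 637 in control MEFs, and was 4.27-fold higher in ESCs (log2 2.09, SE 0.33, limma adjusted p = 0.00689). Ldha, the subunit typical of muscle and of hypoxic cells, read 12807 in 2i ESCs and 11814 in S ESCs, against 8565 in 4n 2i MEFs, 12326 in 2n 2i MEFs and 11880 in control MEFs. It was bright throughout, and its difference of 0.19 did not pass (limma adjusted p = 0.438). The regulators of phosphofructokinase, Pfkfb3 (-0.01, limma adjusted p = 0.987) and Pfkfb4 (-0.62, limma adjusted p = 0.178), did not pass, and Pfkfb4 was below the floor on both ESC arrays.

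The hypoxia response genes differed in direction between the cell types: 2 of 10 tested were higher in ESCs, 2 were lower and 6 were not called. These counts lie close to the shares over all genes, 16.6% higher and 16.3% lower. Egln3, an oxygen-sensing prolyl hydroxylase that is itself a HIF target, read 2417 in 2i ESCs and 1566 in S ESCs, against 359 in 4n 2i MEFs, 476 in 2n 2i MEFs and 465 in control MEFs. The arrays did not overlap and the difference was 4.52-fold (log2 2.18, SE 0.25, limma adjusted p = 0.00275). Ddit4, a stress-induced inhibitor of mTORC1 signalling also called REDD1, had 3009 in 2i ESCs and 2626 in S ESCs, against 1221 in 4n 2i MEFs, 1815 in 2n 2i MEFs and 1099 in control MEFs, 2.09-fold higher in ESCs (log2 1.06, SE 0.25, limma adjusted p = 0.0222). The members called lower were the collagen prolyl 4-hydroxylase subunits, which modify collagen chains as they are made. P4ha2 read 260 in 2i ESCs and 196 in S ESCs, against 921 in 4n 2i MEFs, 1183 in 2n 2i MEFs and 1013 in control MEFs, and was 4.55-fold lower in ESCs (log2 -2.19, SE 0.18, limma adjusted p = 0.00125). Its S ESC value was below the floor and its 2i ESC value just above it, so the fold includes an unknown part of background. P4ha1 read 1576 in 2i ESCs and 807 in S ESCs, against 2727 in 4n 2i MEFs, 3271 in 2n 2i MEFs and 2424 in control MEFs, 2.47-fold lower in ESCs (log2 -1.30, SE 0.33, limma adjusted p = 0.0271). P4ha1 was well above the floor on both ESC arrays. Each of these subunits was thus lower in ESCs than in MEFs, and so were the fibroblast markers: the summed intensity of the 7 measured fibroblast genes was 1812 in 2i ESCs and 2735 in S ESCs, against 62334 in 4n 2i MEFs, 50877 in 2n 2i MEFs and 46435 in control MEFs. Their part in the P4ha1 and P4ha2 differences was not tested.

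The members of the hypoxia response that were not called included the mitophagy receptor Bnip3, with 4419 in 2i ESCs and 2494 in S ESCs, against 1671 in 4n 2i MEFs, 1350 in 2n 2i MEFs and 464 in control MEFs. ESCs and MEFs did not overlap, yet the MEF arrays were so far apart that the difference of 1.71 (SE 0.66) did not pass (limma adjusted p = 0.0831). Its relative Bnip3l, also a mitophagy receptor, lay between 7882 and 8169 on all arrays (0.04, limma adjusted p = 0.652), and the angiogenic growth factor Vegfa between 1119 and 1574 (-0.17, limma adjusted p = 0.432). Ndrg1, a hypoxia- and stress-induced gene, differed by 0.23 (limma adjusted p = 0.615) with overlapping cell types. Egln1, the main oxygen sensor of the hydroxylase family, differed by -0.47 (limma adjusted p = 0.051). Ankrd37, an ankyrin repeat gene induced by HIF, read 253 in 2i ESCs and 232 in S ESCs, against 122 on each of the 3 MEF arrays, and reached the floor on the 2i ESC array alone. Its difference of 0.98 was just under 2-fold (limma adjusted p = 0.00134), and since its MEF values were identical, that p holds no spread between MEF arrays.

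**Figure D2:**
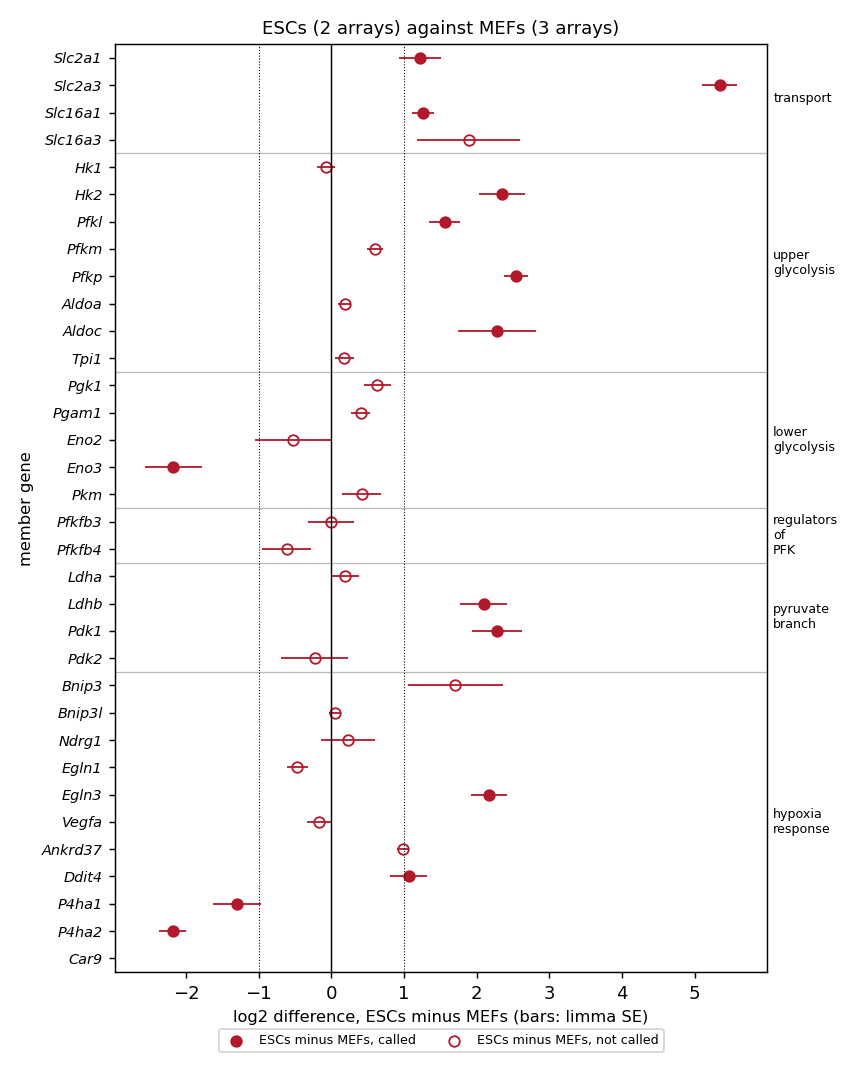
Log2 difference of ESCs minus MEFs for each tested member (horizontal axis; points are limma estimates from 2 ESC and 3 MEF arrays, bars are limma SEs, dotted lines mark 2-fold). Filled points are called (11 higher, 3 lower), and Slc2a3 lies farthest to the right at 5.35, while Eno3, P4ha1 and P4ha2 are the filled points on the left.

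These calls depended on the arrays to different degrees. Slc2a3, Pfkp, Slc16a1, Ldhb, Egln3 and P4ha2 were called whichever array was left out. Hk2, Pfkl and Pdk1 lost the call when either ESC array was left out (limma adjusted p between 0.0514 and 0.077), although their differences stayed between 1.55 and 2.47. Slc2a1 lost its call without either ESC array, and without the 4n 2i MEF array its difference was just under 2-fold (0.98). Aldoc lost its call without either ESC array or the 2n 2i MEF array, and Eno3 without the 2i ESC array (-1.69, limma adjusted p = 0.072). Ddit4 was called in the fit without the 2n 2i MEF array and lost in the other 4, and P4ha1 was called without the 2i ESC array and lost in the other 4.

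In pathways next to glycolysis few genes were called between the cell types. Of 6 tested genes of the pentose phosphate pathway, which draws sugar off glycolysis to make NADPH and ribose, 1 was higher in ESCs, the transketolase Tkt (1.12, limma adjusted p = 0.0028), and none was lower. Of 9 genes of the pyruvate dehydrogenase complex and its regulators none was called, and of 14 genes of the citric acid cycle 1 was, the mitochondrial isocitrate dehydrogenase Idh2, higher in ESCs (1.41, limma adjusted p = 0.0154). Among 7 tested genes of other isoenzymes and of gluconeogenesis, Fbp2, Fbp1 and Pgam2 passed the thresholds, but each reached the floor on 1 ESC array only and had the same value below the floor on all 3 MEF arrays. Their p values thus hold no spread between MEF arrays, and no size of change is given. The background share of 16.6% called higher applies to each of these lists.

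Of 9 genes for the HIF factors and oxygen sensing, 2 were higher and 1 was lower in ESCs, where 16.6% of all genes tested were higher and 16.3% lower. Epas1, which encodes the alpha subunit HIF-2α, read 1791 in 2i ESCs and 3051 in S ESCs, against 553 in 4n 2i MEFs, 641 in 2n 2i MEFs and 1221 in control MEFs, a difference of 1.63 (limma adjusted p = 0.0333). Hif3a, a further alpha subunit, was also called higher (limma adjusted p = 0.00227), but reached the floor on the S ESC array alone, with 212 in 2i ESCs and 315 in S ESCs, against values between 71.9 and 75.3 in MEFs. Its size of change is therefore not given. Cited2, which competes with HIF for a coactivator, was lower (-1.44, limma adjusted p = 0.0106). Hif1a itself read 2549 in 2i ESCs and 2823 in S ESCs, against 4185 in 4n 2i MEFs, 5073 in 2n 2i MEFs and 3717 in control MEFs. Its difference of -0.68 (limma adjusted p = 0.0235) was under 2-fold, and HIF-1α is controlled largely by protein stability, which arrays do not measure. Vhl differed by 0.03 (limma adjusted p = 0.919). Of 20 tested further hypoxia-induced genes, 5 were higher in ESCs, led by the mitochondrial adenylate kinase Ak4 (2.77, limma adjusted p = 0.0086), the secreted glycoprotein Stc2 (1.54, limma adjusted p = 0.00641, below the floor in control MEFs) and the histone demethylase Kdm3a (1.51, limma adjusted p = 0.00214). The vasodilator peptide gene Adm was the 1 called lower (limma adjusted p = 0.000555), with 196 in 2i ESCs and 166 in S ESCs, both below the floor, against 906 in 4n 2i MEFs, 1127 in 2n 2i MEFs and 1042 in control MEFs. Myc factors, which also drive glycolytic genes, differed by member: Mycn read 2137 in 2i ESCs and 2700 in S ESCs, against values between 178 and 180 in MEFs that were all below the floor, and was called higher in ESCs (limma adjusted p = 0.000231). Myc was not called (-1.67, limma adjusted p = 0.069). Of 9 tested cell cycle genes, 6 were called higher in ESCs and none lower, with a median log2 difference of 1.46. The part of cell division in the differences of the members was not tested.

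The second comparison set the 2i ESC array against the S ESC array, to see how the ESC groups differ within the same cell type. With 1 array per group no difference could be tested, and members are described by a threshold of 2-fold, leaving out Pfkfb4 and Car9, which were below the floor. Most members stood a little higher on the 2i ESC array: 26 of 32 by any amount and 27 after quantile normalization, with a median log2 difference of 0.27 against -0.04 over all 10493 genes compared. By any amount, 45.0% of these genes were higher and 54.9% lower. At least 2-fold higher were 3 members (9.38%), where 2.78% of all genes were, and no member was at least 2-fold lower, where 2.54% of all genes were, or 5.33% in either direction.

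The 3 members past 2-fold came from different steps. Eno2 read 716 in 2i ESCs and 304 in S ESCs (log2 difference 1.23). Ndrg1 read 5278 in 2i ESCs and 2377 in S ESCs (1.15). Ldhb read 3933 in 2i ESCs and 1928 in S ESCs (1.03), and the mean of its 2 probe sets lay just under 2-fold (0.99). Just inside the 2-fold line therefore stood Ldhb, and just outside it stood Pfkfb3, a kinase that raises the activator of phosphofructokinase, with 580 in 2i ESCs and 294 in S ESCs (0.98), and P4ha1 (0.96). Pfkfb3 passed 2-fold after quantile normalization (1.03).

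By role, all 10 compared genes of the hypoxia response were higher on the 2i ESC array by some amount, where 45.0% of all genes were. The 10 had a median of 0.44 and a range of 0.02 for Bnip3l to 1.15 for Ndrg1. Bnip3 (0.83), Egln3 (0.63) and Vegfa (0.48) were in the middle of that range. All 4 transporters were higher by 0.20 to 0.66, with Slc16a3 the highest. The upper glycolytic genes differed by -0.09 to 0.83, and Aldoc was the highest of them. On the lower side stood Eno3, with 248 in 2i ESCs and 487 in S ESCs (-0.97, and -1.01 after quantile normalization), Pdk2 (-0.69) and, by less, Pdk1 (-0.13). The enolases Eno2 and Eno3 thus differed in opposite directions between the same arrays.

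**Figure D3:**
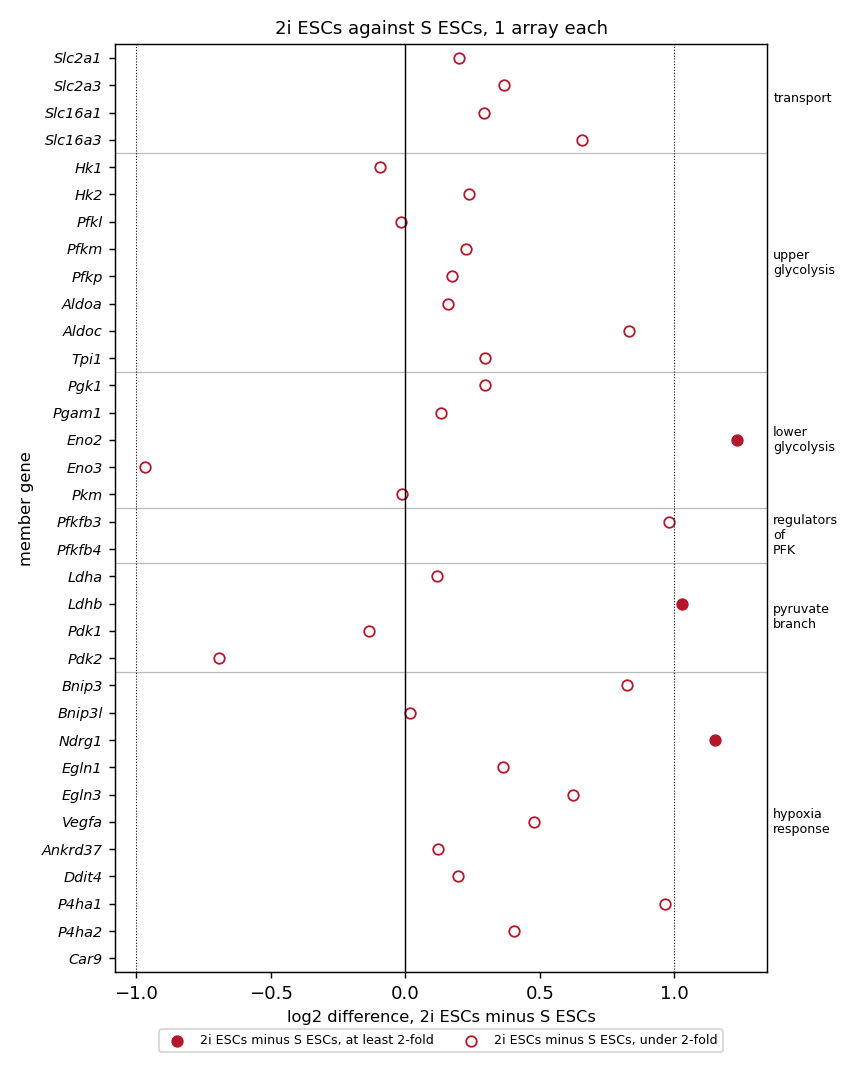
Log2 difference of 2i ESCs minus S ESCs for each compared member (horizontal axis, 1 array each, no error bars; dotted lines mark 2-fold). Filled points reach 2-fold (Eno2, Ndrg1 and Ldhb, all to the right), and the 10 compared hypoxia response genes all lie to the right of 0.

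The neighbouring lists showed single genes past 2-fold. Fbp2, a fructose bisphosphatase, which runs the phosphofructokinase step backwards, read 967 in 2i ESCs and 207 in S ESCs, the S ESC value being below the floor. Plin2, which coats lipid droplets and is induced by hypoxia, read 2999 in 2i ESCs and 1148 in S ESCs (1.38), and the pyruvate dehydrogenase kinase gene Pdk3 read 3458 in 2i ESCs and 1514 in S ESCs (1.19). Myc was the gene at least 2-fold lower, with 543 in 2i ESCs and 1581 in S ESCs (-1.54). Of 18 further hypoxia-induced genes compared, 15 were higher on the 2i ESC array by some amount. The HIF factors and oxygen sensors leaned the other way, with 7 of 9 lower by some amount and none at 2-fold, Epas1 at -0.77 and Hif1a at -0.15. Over all genes compared, 45.0% were higher and 54.9% lower by any amount. Pluripotency markers were evenly split between higher and lower (4 and 4 of 8), and 6 of 9 cell cycle genes were lower on the 2i ESC array, with a median of -0.13. Fibroblast markers were lower on the 2i ESC array in 4 of 4 compared genes (median -0.59, Dcn at -1.91), and neural markers in 3 of 3 (median -0.93, Map2 at -1.58), with the 2i ESC values of Dcn and Map2 below the floor. Muscle markers did not move together: of 3 compared genes 1 was higher and 2 were lower (median -0.07), with Des at -1.42. Neither did mesothelial markers, with 1 of 3 compared genes higher and 2 lower (median -0.24). The higher one was Msln at 2.28, its S ESC value being below the floor. The part of such cells in the differences of the members was not tested.

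The third comparison set each 2i MEF array against the control MEF array. Both comparisons use the same control array, so their values are given side by side and no overlap between them is read as agreement. Of 32 members compared, 5 were at least 2-fold higher and 1 was at least 2-fold lower on the 4n 2i MEF array, or 15.6% and 3.13% of them. Of all 10356 genes compared there, 5.23% were higher and 3.42% lower by 2-fold, or 8.65% in either direction. On the 2n 2i MEF array 2 were at least 2-fold higher and none lower, or 6.25%. Of all 10173 genes compared there, 1.47% were higher and 0.433% lower, or 1.91% in either direction. Slc16a3 and Bnip3 were at least 2-fold higher on the 4n and on the 2n array. Counting every gene, members included, 542 passed this line upward for 4n and 150 for 2n, and 108 did so for both. Sharing this line was thus common among the genes that passed it for 2n, and does not set the 2 members apart. Ankrd37 and Car9 were below the floor and were not compared.

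Slc16a3 read 1112 in 4n 2i MEFs and 1401 in 2n 2i MEFs, against 335 in control MEFs. The log2 difference from control was 1.73 (3.32-fold) for the 4n array and 2.06 (4.18-fold) for the 2n array. A larger difference was found for 2.31% of the genes compared on the 4n array and for 0.206% on the 2n array. Bnip3 read 1671 in 4n 2i MEFs and 1350 in 2n 2i MEFs, against 464 in control MEFs. Its differences were 1.85 (3.60-fold) for the 4n array and 1.54 (2.91-fold) for the 2n array, with 1.99% and 0.501% of the genes compared above it. Its dimmer probe set differed by 1.68 on the 4n array and by 1.32 on the 2n array. Both genes, a lactate exporter and a mitophagy receptor, were above the floor on every array, control included, and both 2i MEF arrays were well above the control array. The promoter windows printed above hold 2 matches for Slc16a3 and 5 for Bnip3. A core was present in 25 of the 31 member windows, and its part in these differences was not tested.

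Pdk1 lay just under 2-fold on both, with 314 in each of the 4n and 2n 2i MEFs, against 162 in control MEFs (0.95 for each array). The value was the same on both 2i MEF arrays and the control value was below the floor. Slc2a3 stood at 0.59 on the 4n array and 0.55 on the 2n array, at low intensities of 288 and 279, against 191 in control MEFs. Ddit4 stood at 0.15 on the 4n array and 0.72 on the 2n array. The other hypoxia response members did not share the size of the Bnip3 difference: Vegfa, Bnip3l, Egln1, Egln3, Ndrg1, P4ha1 and P4ha2 lay between -0.37 and 0.17 on the 4n array and between -0.25 and 0.43 on the 2n array.

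The 4n 2i MEF array had further members past 2-fold that the 2n array did not. Aldoc read 924 in 4n 2i MEFs, against 427 in 2n 2i MEFs and 327 in control MEFs (1.49 against control). Pdk2 read 1368 in 4n 2i MEFs, against 626 in 2n 2i MEFs and 606 in control MEFs (1.18 against control). Eno2 read 1095 in 4n 2i MEFs, against 511 in 2n 2i MEFs and 538 in control MEFs (1.02 against control). In each the 4n array alone was high among the MEFs, and the 4n array was also at least 2-fold above the 2n array, by 1.11 for Aldoc, 1.13 for Pdk2 and 1.10 for Eno2. The gene at least 2-fold below control was Pfkfb4, with 195 in 4n 2i MEFs, against 335 in 2n 2i MEFs and 402 in control MEFs (-1.04), where the 4n value was below the floor.

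Several glycolytic enzymes read lower on the 4n array, by less than 2-fold. Pkm read 5253 in 4n 2i MEFs, against 8179 in 2n 2i MEFs and 9186 in control MEFs (-0.81 against control). Ldha read 8565 in 4n 2i MEFs, against 12326 in 2n 2i MEFs and 11880 in control MEFs (-0.47). Slc2a1 read 3302 in 4n 2i MEFs, against 5989 in 2n 2i MEFs and 4984 in control MEFs (-0.59). On the 4n array these enzymes and the glucose carrier were the lowest of the MEF arrays, as were Pgk1 (-0.32), Pgam1 (-0.32), Hk2 (-0.45) and Pfkp (-0.37). Of the 5 lower glycolytic genes 4 were below control, with Eno2 the exception. On the 2n array the upper glycolytic genes lay slightly above control in 7 of 8 cases (Pfkp changed sign after quantile normalization), with a median of 0.08, and Hk2 (0.51) and Pfkl (0.45) were the highest. Over all members 17 of 32 were above control on the 4n array and 15 below (14 and 18 after quantile normalization), and 23 were above and 9 below on the 2n array (20 and 12 after quantile normalization). The medians were 0.00 for the 4n array and 0.09 for the 2n array, against -0.01 and 0.00 over all genes compared. By any amount, 35.96% of all genes compared were above control and 51.3% below it on the 4n array. On the 2n array 44.6% were above and 34.5% below, and the rest were exactly equal to control on each array.

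**Figure D4:**
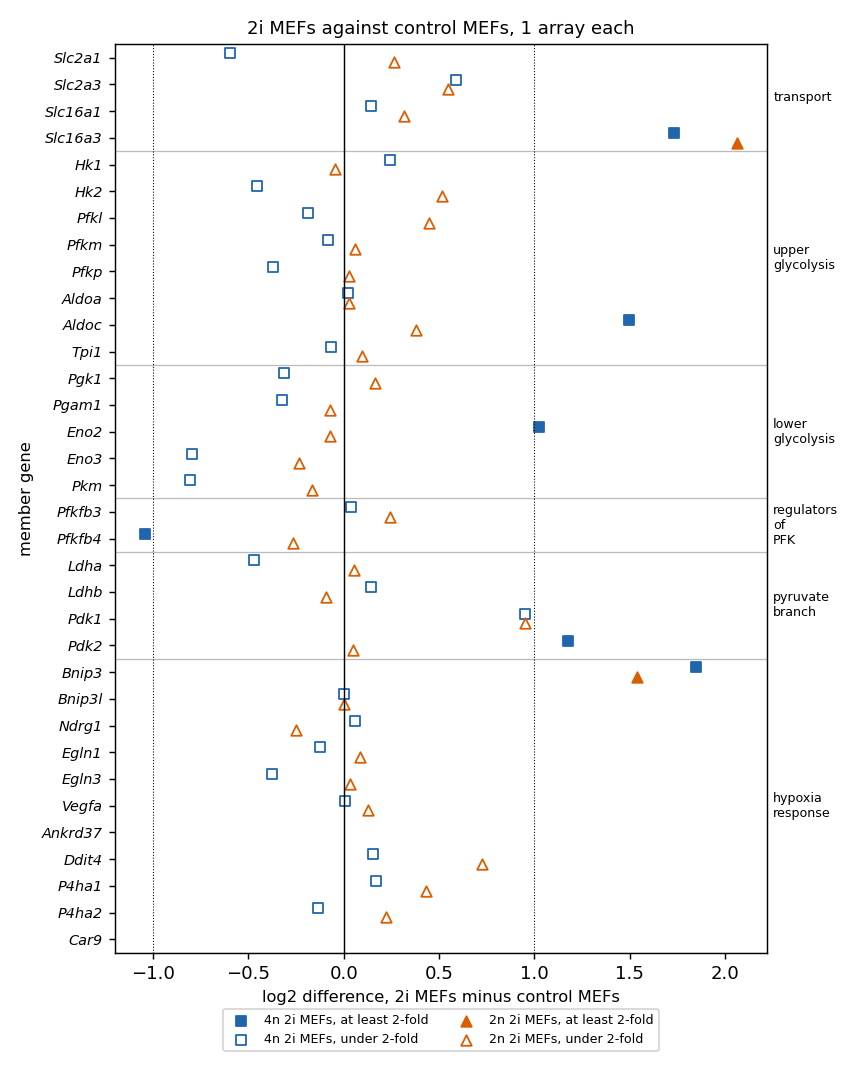
Log2 differences of the 4n 2i MEFs (squares) and of the 2n 2i MEFs (triangles) minus control MEFs for each compared member (horizontal axis, 1 array each, the same control array for both; dotted lines mark 2-fold). Filled symbols reach 2-fold: Slc16a3 and Bnip3 are filled for both arrays, and Aldoc, Pdk2, Eno2 and, on the left, Pfkfb4 for the 4n array.

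Set directly against each other, the 4n and 2n 2i MEF arrays differed by at least 2-fold in 3 of 32 members (9.38%), all higher on the 4n array, where 3.33% of all 10304 genes compared were higher and 5.69% differed in either direction. These were Pdk2, Aldoc and Eno2. No member was at least 2-fold lower, where 2.36% of all genes were, and Hk2 came closest, with 289 in 4n 2i MEFs and 567 in 2n 2i MEFs (-0.97). Over all genes compared, 54.7% were lower on the 4n array by any amount, 33.2% higher and 12.1% exactly equal. Of the members, 22 were lower and 9 higher, with a median of -0.21 against -0.04 over all genes. Slc2a1 (-0.86), Pkm (-0.64), Pfkl (-0.63), Ddit4 (-0.57) and Ldha (-0.53) were among those lower.

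Markers of other cell types differed between the MEF arrays together with these members. Of 10 macrophage genes, 7 reached the floor on the 4n 2i MEF array, with a summed intensity of 17150, against 2 and 1570 on the 2n 2i MEF array and 2 and 2029 on the control MEF array, and all 7 that could be compared were at least 2-fold higher on the 4n array than on the control array. Of 6 mesothelial genes, 5 reached the floor on the 4n 2i MEF array (summed intensity 8108) and 5 on the 2n 2i MEF array (4600), against 1 on the control MEF array (1064). The 5 that could be compared were at least 2-fold higher on both 2i MEF arrays, the same arrays on which Slc16a3 and Bnip3 were higher. Cell cycle genes were above control in 9 of 9 cases on the 2n 2i MEF array, with a median of 0.43, and below control in 8 of 9 cases on the 4n 2i MEF array, with a median of -0.23. Over all genes compared, 44.6% were above control on the 2n array and 51.3% below it on the 4n array. Fibroblast genes stayed present, with a summed intensity of 62334 in 4n 2i MEFs and 50877 in 2n 2i MEFs, against 46435 in control MEFs. Of 6 measured neural genes, 4 reached the floor on the 4n 2i MEF array (summed intensity 3109) and 3 on the 2n 2i MEF array (3113), against 3 on the control MEF array (1815). Sox10 read 629 in 4n 2i MEFs and 196 in 2n 2i MEFs, against 176 in control MEFs, of which the 4n value alone reached the floor. Map2 stood at 1.03 and Tubb3, below the floor on the 4n array, at -1.19 on that array against control, and Nes at 1.70 on the 2n array. Of 8 muscle genes 2 reached the floor on each 2i MEF array, against 1 on the control MEF array. Des among them read 1339 in 4n 2i MEFs and 738 in 2n 2i MEFs, against 96.3, below the floor, in control MEFs. The other, Acta1, did not follow Des, with 820 in 4n 2i MEFs and 1321 in 2n 2i MEFs, against 1268 in control MEFs. The part of macrophage, mesothelial, neural, muscle or dividing cells in the differences of the members, among them the neuronal enolase Eno2 and the brain-type aldolase Aldoc, was not tested.

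Among the neighbouring lists, Pdk4, another pyruvate dehydrogenase kinase, read 430 in 4n 2i MEFs and 575 in 2n 2i MEFs, against 223 in control MEFs (0.95 for the 4n array and 1.36 for the 2n array). Ak4 read 781 in 4n 2i MEFs and 1306 in 2n 2i MEFs, against 577 in control MEFs (0.44 for the 4n array and 1.18 for the 2n array). Plod2, a collagen lysyl hydroxylase induced by hypoxia, was at 1.17 on the 4n array and 0.67 on the 2n array, and Pdp1, a phosphatase that switches pyruvate dehydrogenase on, at 1.41 on the 4n array and 0.45 on the 2n array. Epas1 stood at -1.14 on the 4n array and -0.93 on the 2n array. Hif1a stood at 0.17 on the 4n array and 0.45 on the 2n array, and Vhl at 0.53 on the 4n array and 0.24 on the 2n array. Myc was at least 2-fold lower on the 4n array (-1.10) and stood at -0.18 on the 2n array. Of 18 further hypoxia-induced genes, 6 were above and 10 below control on the 4n array. This is close to the shares over all genes compared there, 35.96% above and 51.3% below. On the 2n array 11 of 18 were above and 5 below, where 44.6% of all genes compared were above and 34.5% below. Citric acid cycle genes were below control in 11 of 14 cases on the 4n array and in 6 of 14 on the 2n array, none by 2-fold. The shares below control over all genes, 51.3% for the 4n array and 34.5% for the 2n array, apply to these counts too.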

How the data were processed

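Total RNA was labelled with biotin and put on whole-transcript arrays, per the labels' protocols. Linear intensity values were deposited in a table with 1 column per array. The background correction, summarisation and normalization behind them are not given in the sources used here. Of 28853 probe sets, 21789 named 1 gene, 1621 several and 5443 none, and 21698 were matched by Entrez Gene number to RefSeq (GRCm38.p6), which served for names and promoter windows. Where a gene had several windows, the most upstream one was taken. The brightest probe set of a gene was used, and 7 members had several.

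Values were compared as log2(intensity + 1). A gene was compared where the brighter side reached its array's floor, the 50th percentile of gene-named probe sets. ESCs and MEFs were compared with limma 3.58.1 (lmFit and eBayes, 3 residual degrees of freedom, Benjamini-Hochberg over all genes), after the step had been tested on simulated data. There, 63 of 100 genes changed by 1.5 on the log2 scale and 81 of 100 changed by 3.0 were recovered, with 6 false calls. A gene that was not called may therefore still differ. Single arrays were compared by a fold of 2 without a test. The members, the 7 pathway lists and the marker lists, 152 genes in 15 lists with 139 measured, were chosen with earlier results of these data known. From each pathway or marker list at most the 3 highest and 3 lowest genes past the thresholds could be named, plus Hif1a, Epas1, Vhl, Myc and Mycn. Python 3.11.15, numpy 2.4.6, pandas 2.3.3, matplotlib 3.10.9 and R 4.3.3 were used.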

Additional observations from a re-analysis of the deposited data

How the results depend on the processing

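With 1 array per group, and levels and differences that include an unknown part of background near the floor, these data limit what can be said of small differences. No paired analysis was possible because each group has 1 array. Alternatives were quantile normalization, a floor raised to the 75th percentile or removed, a gene's mean over its probe sets, a pseudocount of 16, 3-fold as threshold and, for ESCs against MEFs, leaving out each array, an intensity trend with a robust prior, and leaving out genes identical on MEF arrays. Of 1157 recomputed member differences 1114 stayed on their side of the threshold, 39 fell short of it and 4 passed it anew, and no called difference changed sign.

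For ESCs against MEFs, the 11 members called higher became 7 at 3-fold and between 5 (without the 2i ESC array) and 11 when 1 array was left out, with 6 without the S ESC array. The 3 called lower became 2 whichever array was left out. A lone ESC array was assumed to vary like the other groups. For 2i ESCs against S ESCs, the 3 members at least 2-fold higher became 0 at 3-fold, and the 0 lower became 1 (Eno3) after quantile normalization. For 4n 2i MEFs against control MEFs, the 5 higher became 2 at 3-fold (Slc16a3 and Bnip3), and the 1 lower (Pfkfb4) became 0 with the higher floor, with a pseudocount of 16 (-0.99) and at 3-fold. For 2n 2i MEFs against control MEFs, the 2 higher became 1 at 3-fold (Slc16a3). For 4n against 2n 2i MEFs, the 3 higher became 0 at 3-fold. The higher thresholds and fewer arrays or genes are the alternatives' own construction, and for quantile normalization the cause was not tested. Over all genes, the numbers called ranged over these alternatives from 971 to 2114 higher and 1135 to 2027 lower for ESCs against MEFs. The genes at least 2-fold higher numbered 267 to 594 for 4n 2i MEFs and 45 to 161 for 2n 2i MEFs, each against control MEFs. Signs that differed after quantile normalization belonged to differences of under 0.05 in size (Pfkl, Aldoa, Pfkfb3, Bnip3l, Pfkp, Pdk2 and Egln3).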

Other observations

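Gapdh, the dehydrogenase in the middle of glycolysis, was named by 25 probe sets, each together with other genes. Their median intensities were 17926 in 2i ESCs and 18065 in S ESCs, and 17554 in 4n 2i MEFs, 18103 in 2n 2i MEFs and 18103 in control MEFs. No difference between the array pairs compared, or between ESCs and MEFs, exceeded 0.0881 on the log2 scale in any of these probe sets. Whether that signal comes from Gapdh or from the other genes named was not tested.

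A further 16 probe sets named Hk1 together with the ribosomal protein gene Rpl17. All 16 were higher on the 4n 2i MEF array than on the control MEF array, with a median log2 difference of 0.30. The brightest probe set naming Hk1 alone differed by 0.24 in the same comparison, and the dimmer one, which matches RefSeq mRNAs, by -0.69.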
